A study of Homo sapiens with 2 samples.

Results

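ABCA1, ABCA4 and ABCG1 are membrane pumps that use ATP to move lipids across or out of a membrane, and these 3 genes are described here out of 1806 that the authors listed as different between a BRCA1-deficient and a BRCA1-expressing ovarian cancer line. They were taken from the table by name, and the set was chosen by its FPKM values and the authors' fold changes between the lines, so the levels below are a description and carry no test. The BRCA1-deficient line is UWB1.289, an established line from a high-grade serous ovarian carcinoma, labelled BRCA1 Knockout. Its partner, labelled WT and named UWABRCA1 under cell line, is known as a derivative of UWB1.289 in which BRCA1 was put back. Both were untreated tumour cells grown in a mix of RPMI 1640 and MEGM with 3% serum, and total RNA was sequenced after removal of ribosomal RNA, with the strand kept. The labels give 1 sample per line, each line is 1 cell population, and the values are the authors' mean FPKM (a read level normalised for the length of the transcript and the depth of the library), so no spread between cultures can be given for any value below. The read depth is unknown.

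Most cells cannot break down the ring structure of cholesterol, and they remove a surplus by export. ABCA1 loads cholesterol and phospholipid onto lipid-poor apolipoprotein A-I, the first step in building a high-density lipoprotein, and ABCG1 adds cholesterol to particles that are already formed. Both genes are textbook targets of the liver X receptors (LXR), nuclear receptors that bind oxidised cholesterol and sit on DNA with a retinoid X receptor (RXR) partner. ABCA4 belongs to the same subfamily as ABCA1 but is best known from the photoreceptors of the retina, where it moves retinal bound to phosphatidylethanolamine to the cytosolic side of the disc membrane.

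The promoter of ABCA1 is shown because the 2 LXR targets of the set, ABCA1 and ABCG1, were both higher in BRCA1-deficient cells. It is the 250 bases before the start of the gene in the RefSeq table (GRCh38.p14, chr9:104928156-104928405, minus strand), read 5′ to 3′ in the direction of the gene. The capitals mark a CACGTG E-box, 142 to 147 bases before the start, and a match to the LXR/RXR motif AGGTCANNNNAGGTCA on the opposite strand, 54 to 69 bases before the start.
ABCA1 promoter: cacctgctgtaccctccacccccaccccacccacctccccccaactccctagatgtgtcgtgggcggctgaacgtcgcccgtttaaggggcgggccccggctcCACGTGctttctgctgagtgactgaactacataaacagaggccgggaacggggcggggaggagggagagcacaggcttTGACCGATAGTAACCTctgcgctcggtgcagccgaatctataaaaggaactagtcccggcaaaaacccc

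On its own strand the LXR/RXR match reads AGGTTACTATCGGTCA and has 2 mismatches to the motif, the most that the search on both strands allowed. Such a match was present in 2.03% of the 35116 promoter windows of the same length in the table. An exact CACGTG was present in 6.34% of them, and GGGCGG, the box bound by SP1 and related factors, in 42.6%. The ABCA1 window holds GGGCGG at 3 places, left in lower case. Of the 4 LXR target genes of the results below that had a promoter in the table (ABCA1, APOC1, SCD and SREBF1), ABCA1 held the LXR/RXR match and the E-box, and all 4 held GGGCGG. A match in letters is not evidence of binding in these cells.

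The miR-33 family is shown because it is a known brake on ABCA1 and because miR-33b lies inside SREBF1, a gene with a row in the table. In the RefSeq table (GRCh38.p14) miR-33b-5p is at chr17:17813897-17813916 on the minus strand, and miR-33a-5p is at chr22:41900949-41900969 on the plus strand. The capitals mark the seed (bases 2 to 8), which both share.
hsa-miR-33a-5p: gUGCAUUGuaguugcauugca
hsa-miR-33b-5p: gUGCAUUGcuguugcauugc

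The DNA letters that pair with this seed, CAATGCA, occur 4 times in the 3313 bases after the stop codon of ABCA1 in GENCODE release 29 (GRCh38), and the first 3 fall within 22 bases, where neighbouring matches overlap at the start. The first stretch below is chr9:104784158-104784187 and the second chr9:104782833-104782855, both on the minus strand, with the pairing letters in capitals.
ABCA1 first stretch: tactattCAATGCAATGCAattCAATGCAa
ABCA1 second stretch: tttttttaattgcaaCAATGCAa

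The ends of the transcripts after the stop codon of ABCG1 (852 bases) and ABCA4 (400 bases) held none of these letters. Among 1753 genes with an end at most 20% shorter or 25% longer than that of ABCA1, 17.2% held at least 1 match. By the same length rule 3.56% did for ABCG1 and 1.73% for ABCA4. Holding none was thus usual for ends as short as theirs and sets neither gene apart. Among all 18845 coding genes searched 7.15% held a match. The miRNAs themselves were not analysed here.

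BRCA1 itself had a mean of 5.63 FPKM in BRCA1-deficient cells and 22.03 FPKM in BRCA1-expressing cells, so the gene that gives the lines their labels was lower in deficient cells but still present in their RNA. The labelled cell type could be checked on few genes. Of 10 markers of serous ovarian carcinoma 3 had a row, beside 9.01% of annotated coding genes. MUC16 (CA125) was at 6.21 FPKM in deficient cells and 1.40 in expressing cells, and FOLR1 at 2.80 in deficient and 6.56 in expressing cells. WT1 was near 0 in both, at 0.0130 FPKM in deficient cells and 0.155 in expressing cells. None of 10 macrophage markers had a row, so macrophages, in which ABCA1 and ABCG1 are best studied, were not checked. Fewer cells that express a gene and less of its RNA per cell cannot be told apart in these bulk libraries.

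ABCG1 was many times higher in BRCA1-deficient cells than in BRCA1-expressing cells, where it was low. ABCG1 (ENSG00000160179, chromosome 21, 42199689 to 42297244, plus strand, coordinates as the authors give them, read as GRCh38) had 5.23 FPKM in BRCA1-deficient cells and 0.303 FPKM in BRCA1-expressing cells, a 17.3-fold ratio. On the log2 scale of FPKM + 1, which understates the change of low genes, the difference (deficient minus expressing) was 2.26. The authors' deposited table gave a log2 fold change of 4.20 with an adjusted p of 1.94e-13. In deficient cells 621 of the listed genes had a higher FPKM than ABCG1, against 1384 in expressing cells. The gene holds a ribosomal RNA pseudogene, RNA5SP492, on its strand, whose reads were not separated here.

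ABCA1 differed the same way by much less. ABCA1 (ENSG00000165029, chromosome 9, 104781006 to 104928155, minus strand) had 4.10 FPKM in BRCA1-deficient cells and 1.66 FPKM in BRCA1-expressing cells, a 2.46-fold ratio and a difference of 0.94 on the log2 scale of FPKM + 1. For ABCA1 the authors' deposited table gave 1.26 as the log2 fold change and 0.0133 as the adjusted p. Together ABCA1 and ABCG1 summed to 9.33 FPKM in deficient cells and 1.96 FPKM in expressing cells. Their order by level also differed, since ABCG1 was at 1.28 times the FPKM of ABCA1 in deficient cells and at 0.182 times in expressing cells.

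ABCA4 went the other way and had the largest difference of the 3 on the log2 scale of FPKM + 1. ABCA4 (ENSG00000198691, chromosome 1, 93992834 to 94121148, minus strand) had 2.34 FPKM in BRCA1-deficient cells and 30.03 FPKM in BRCA1-expressing cells, 12.8 times more in BRCA1-expressing cells and a difference of -3.21 on that scale. The authors' deposited table gave a log2 fold change of -3.99 with an adjusted p of 5.21e-22. In deficient cells 875 listed genes were above ABCA4, and in expressing cells 103 were. ABCA4 made up 20.1% of the summed FPKM of the 3 genes in deficient cells and 93.9% in expressing cells.

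**Figure D1:**
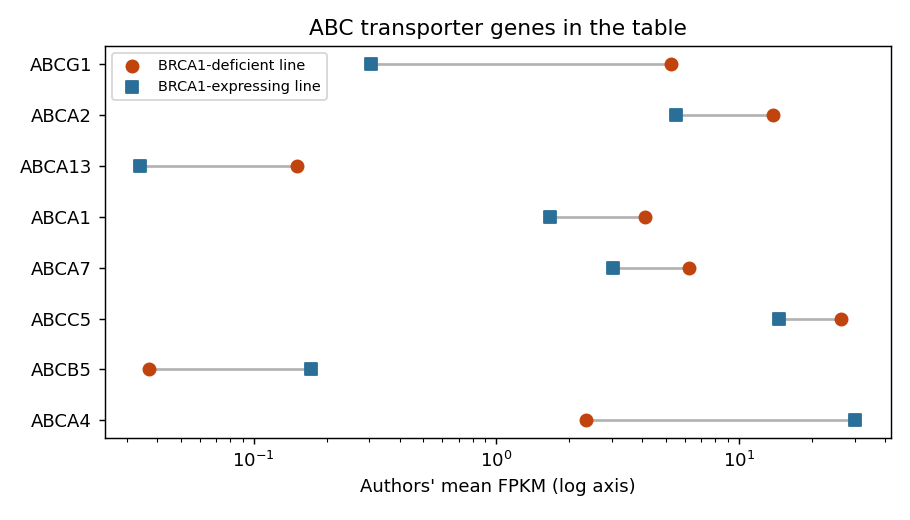
Authors' mean FPKM (log axis) of the 8 ABC transporter genes with a row, ordered by the authors' log2 fold change, with circles for BRCA1-deficient cells and squares for BRCA1-expressing cells. ABCG1, at the top, is at 5.23 FPKM in deficient and 0.303 in expressing cells, and ABCA4, at the bottom, at 2.34 in deficient and 30.03 in expressing cells.

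The order of levels was thus ABCG1, ABCA1, ABCA4 in BRCA1-deficient cells and ABCA4, ABCA1, ABCG1 in BRCA1-expressing cells. Whether neighbours in either order differ beyond the spread of cultures cannot be said from means. In the authors' ranking by p, rebuilt from the adjusted values in their deposited table, ABCA4 stood at place 20, ABCG1 at 92 and ABCA1 at 1740 among 38868 features. The transcripts were also compared for shared sequence, since reads from a shared stretch could be counted to either gene. No stretch of 31 bases in the GENCODE transcripts of ABCA1 (10494 bases), ABCA4 (7309) and ABCG1 (3475) was common to any pair of them. ABCG1 shared 5 such stretches with its closest relative ABCG4, and ABCA1 and ABCA4 shared 0 with any other gene.

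**Figure D2:**
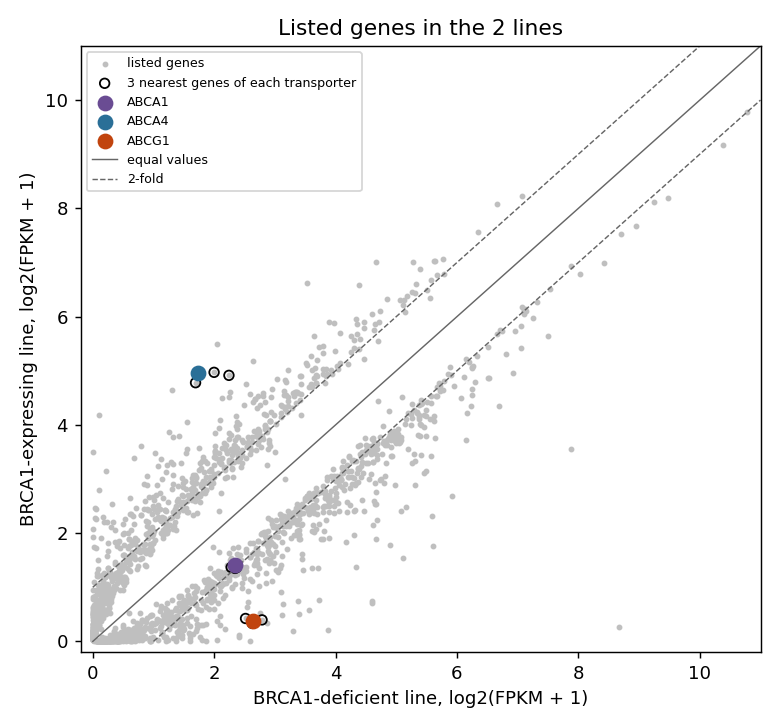
Each point is a listed gene, placed by log2(FPKM + 1) in BRCA1-deficient cells (horizontal) and in BRCA1-expressing cells (vertical), with the solid line for equal values and dashed lines for a 2-fold difference. ABCG1 lies far below the solid line and ABCA4 far above it, while ABCA1, with a difference of 0.94, lies just inside the lower dashed line.

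The genes with the most similar pair of levels were taken by distance in log2(FPKM + 1) over the 2 lines. Nearest to ABCG1 were TWIST2, a transcription factor of mesenchymal cells (distance 0.0505, with 5.18 FPKM in deficient cells and 0.259 in expressing cells), RTL6 (0.129) and the cytochrome P450 gene CYP2S1 (0.150). Nearest to ABCA1 were PHLDA2 (0.0528), the transcription factor NFATC2 (0.0640) and the kinase SYK (0.0826). The genes nearest to ABCA4 lay further off, with TMEM178A at 0.183 and ERP27, a protein of the endoplasmic reticulum, at 0.504. These distances rest on a single pair of means per gene.

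Few genes beside the 3 transporters had a row in the table. Within 2 Mb of ABCA1 none of 18 annotated coding genes had a row. Within 2 Mb of ABCA4 there were 2 of 28. The tissue factor gene F3, 408 kb away, was higher at 342.6 FPKM in deficient cells and 126 in expressing cells, and DIPK1A was lower at 2.14 FPKM in deficient and 6.26 in expressing cells. Near ABCG1 3 of 39 had a row. Of all annotated coding genes 9.01% had a row and 53.5% of the listed genes were higher, so nothing is read from these few neighbours or their directions. The closest, TMPRSS3, a membrane serine protease 74.6 kb away, was at 0.929 FPKM in deficient cells and listed at 0 in expressing cells. SIK1, a salt-inducible kinase, was at 2.54 FPKM in deficient cells and 1.20 in expressing cells, and HSF2BP at 2.94 FPKM in deficient and 1.08 in expressing cells.

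Across the whole ABC transporter family, 8 of 48 genes had a row (16.7%), and 6 of the 8 were higher in BRCA1-deficient cells by the authors' fold. Of all listed genes 53.5% were higher and 46.5% lower, and a split of 6 and 2 over so few genes is no result on the family. All 8 were past 2-fold by that fold (53.4% of all listed genes were at least 2-fold higher by it and 46.0% lower). By comparison 9.01% of annotated coding genes had a row, though not all of those were tested. Besides ABCA1, ABCA4 and ABCG1 the family members with a row were 5. ABCA2, an endosomal and lysosomal lipid transporter, had 13.8 FPKM in deficient cells and 5.50 in expressing cells. ABCA7, a phospholipid transporter linked to phagocytosis, had 6.23 FPKM in deficient and 3.04 in expressing cells. ABCC5, an exporter of cyclic nucleotides and other organic anions, had 26.4 FPKM in deficient and 14.7 in expressing cells. ABCA13 (0.151 in deficient cells and 0.0342 in expressing cells) and ABCB5 (0.0370 in deficient cells and 0.172 in expressing cells) were near 0 in both. In the authors' deposited table the adjusted p was 0.000602 for ABCA2 and between 0.0108 and 0.0492 for the other 4. On the FPKM + 1 scale 2 of the 8, ABCG1 and ABCA2, were at least 2-fold higher (25.3% of all listed genes were) and 1, ABCA4, at least 2-fold lower (22.5%). The median difference of the 8 was 0.82, against 0.20 over all listed genes. It was 0.43 under equal totals, against 0.13, and 0.04 when the ratios were centred, against -0.01. Over the 1305 listed genes with at least 1 FPKM in a line the median was 0.78, and 6 of the 8 reached that minimum. After the columns were scaled to the same sum, 1 of the 8 was past the 2-fold rule upwards and 1 downwards. Of all 1806 listed genes 178 were past it upwards and 520 downwards. The same counts of the 8 held when the ratios were centred, beside 63 and 550 of all listed genes. ABCC5 then lay just below 0. The remaining 40 genes were not analysed here.

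The other LXR targets with a row stood on the same side as ABCA1 and ABCG1. Of 23 genes in the list of LXR targets 8 had a row (34.8%), beside 9.01% of annotated coding genes, not all tested. All 8 were higher in BRCA1-deficient cells by the authors' fold, beside 53.5% of all listed genes. ABCA1 and ABCG1 are 2 of the 8. Their direction and that of SREBF1, SCD and FASN was known when the list was written, so the count is no independent support. TGM2, a transglutaminase that cross-links proteins, had 179 FPKM in deficient cells and 49.1 in expressing cells. The apolipoprotein gene APOC1 had 2.86 FPKM in deficient and 0.646 in expressing cells. LPL, the lipase that releases fatty acids from lipoproteins, had 1.69 FPKM in deficient and 0.791 in expressing cells. The transcription factor SREBF1, which drives fatty acid synthesis and hosts miR-33b, had 17.4 FPKM in deficient and 7.89 in expressing cells. SCD, the main fatty acid desaturase, had 131 FPKM in deficient and 41.6 in expressing cells. FASN, fatty acid synthase, had 112 FPKM in deficient and 38.9 in expressing cells. SCD and FASN are also direct targets of SREBP factors and do not mark LXR alone.

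In the authors' deposited table the log2 fold changes of the 6 others lay between 1.27 for LPL and 2.35 for APOC1. That of ABCA1 was 1.26, so it was the smallest of the 8, and ABCG1 was the largest. On the FPKM + 1 scale 6 of the 8 were past the 2-fold rule upwards and 0 downwards, beside 25.3% and 22.5% of all listed genes. Their median difference was 1.36, against 0.20 over all listed genes. All 8 reached at least 1 FPKM in a line. Over the 1305 listed genes with that minimum the median was 0.78, and 457 were at least 2-fold higher. The median of the 8 was 1.00 under equal totals and 0.53 under centring, against 0.13 and -0.01 over all listed genes. All 8 stayed above 0 under equal totals, where 4 were at least 2-fold higher, beside 178 of all 1806 listed genes. They also stayed above 0 under centring, where 1 was at least 2-fold higher, beside 63 of the 1806. Centring shifted the log2 ratios by -1.01, which moved the median of all listed genes by -0.21 on the FPKM + 1 scale, where low genes move little. The other 15 list members, among them APOE, MYLIP and LPCAT3, were not analysed here.

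**Figure D3:**
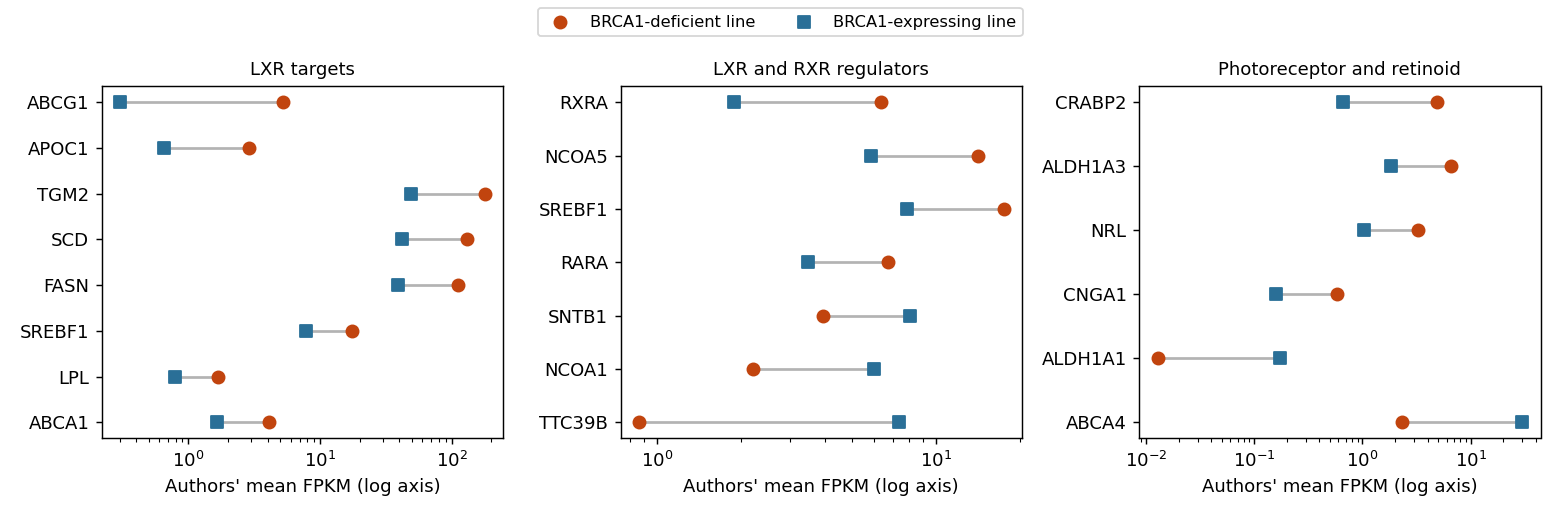
Authors' mean FPKM (log axis) of every member with a row of 3 lists, with circles for BRCA1-deficient cells and squares for BRCA1-expressing cells, ordered within a panel by the authors' log2 fold change. In the panel of LXR targets all 8 circles lie to the right of their squares, while the other panels hold genes on both sides.

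The regulators of the LXR pathway were divided. Of the 25 genes in that list 7 were in the table, 4 of them higher and 3 lower in BRCA1-deficient cells, beside 53.5% and 46.5% of all listed genes. RXRA, an RXR that can partner LXR on DNA, had 6.34 FPKM in deficient cells and 1.88 in expressing cells. The authors' deposited table gave RXRA a log2 fold change of 1.86 with an adjusted p of 0.000109. The retinoic acid receptor RARA had 6.70 FPKM in deficient and 3.48 in expressing cells. The nuclear receptor cofactor NCOA5 had 14.1 FPKM in deficient and 5.83 in expressing cells. SREBF1, given above, was the other higher gene. The coactivator NCOA1 was lower, at 2.20 FPKM in deficient cells and 5.99 in expressing cells. TTC39B, which in mice promotes the breakdown of LXR protein, had the largest difference of the 7, with 0.862 FPKM in deficient cells and 7.33 in expressing cells. Its log2 fold change in the authors' deposited table was -3.13, with an adjusted p of 4.45e-12. TTC39B lies on chromosome 9 (15163622 to 15307360), and the listed genes near it were not counted. Whether its level goes with its position was not tested. SNTB1, a syntrophin that binds the tail of the ABCA1 protein, was at 3.92 FPKM in deficient cells and 8.09 in expressing cells. RARA changed sign when the ratios were centred. The genes of the LXR receptors themselves, NR1H2 and NR1H3, had no row and were not analysed here.

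Of 34 genes of cholesterol uptake, synthesis, transport and storage 8 were in the table (23.5%), beside 9.01% of annotated coding genes. Of the 8, 6 were higher and 2 lower in deficient cells by the authors' fold, beside 53.5% and 46.5% of all listed genes. This split over 8 genes is no result on the list. OSBPL5, a lipid transfer protein between membranes, had 1.78 FPKM in deficient and 0.0875 in expressing cells. SQLE, an early enzyme of the sterol branch, had 76.05 FPKM in deficient and 33.0 in expressing cells. INSIG1, a brake on sterol synthesis, was at 24.6 FPKM in deficient cells and 3.73 in expressing cells, and DHCR7, the enzyme of the last step to cholesterol, at 102 FPKM in deficient and 19.4 in expressing cells. The 2 lower genes were PLIN2, a coat protein of lipid droplets, at 1.73 FPKM in deficient cells and 8.82 in expressing cells, and the lipoprotein receptor VLDLR, at 2.10 FPKM in deficient and 5.71 in expressing cells. Both lie on chromosome 9, as TTC39B does, and the listed genes near them were not counted. Whether the levels of PLIN2 and VLDLR go with their position was not tested. The median difference of the 8 was 1.41, against 0.20 over all listed genes. On the FPKM + 1 scale 6 were past the 2-fold rule upwards and 2 downwards, beside 25.3% and 22.5% of all listed genes. All 8 reached at least 1 FPKM in a line, and over the 1305 listed genes with that minimum the median was 0.78. When the ratios were centred the median of the 8 was 0.75, against -0.01 over all listed genes. Under centring 3 were past the rule upwards and 2 downwards, beside 63 and 550 of all 1806 listed genes. With a pseudocount of 0.1 the median of the 8 was 2.16, against 0.89.

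Among the 6 genes of the photoreceptor and retinoid list with a row, ABCA4 had the highest FPKM in BRCA1-expressing cells. ALDH1A3, CRABP2 and NRL were above ABCA4 in BRCA1-deficient cells. Of the 35 genes of that list 6 were in the table (17.1%), beside 9.01% of annotated coding genes. Of the 6, 4 were higher and 2 lower in BRCA1-deficient cells by the authors' fold, beside 53.5% and 46.5% of all listed genes. This split is close to that of the whole table and is no result on the list. NRL, a rod transcription factor, was at 3.26 FPKM in deficient cells and 1.03 in expressing cells, and CNGA1, a rod channel subunit, at 0.578 FPKM in deficient and 0.159 in expressing cells. Of the retinoic acid genes, CRABP2, which carries retinoic acid to the nucleus, had 4.88 FPKM in deficient cells and 0.658 in expressing cells. ALDH1A3, an enzyme that makes retinoic acid, had 6.53 FPKM in deficient and 1.82 in expressing cells. Its relative ALDH1A1 was near 0 in both lines, at 0.0127 FPKM in deficient cells and 0.172 in expressing cells. In the authors' deposited table CRABP2 had a log2 fold change of 2.98 and ALDH1A3 of 1.93.

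**Figure D4:**
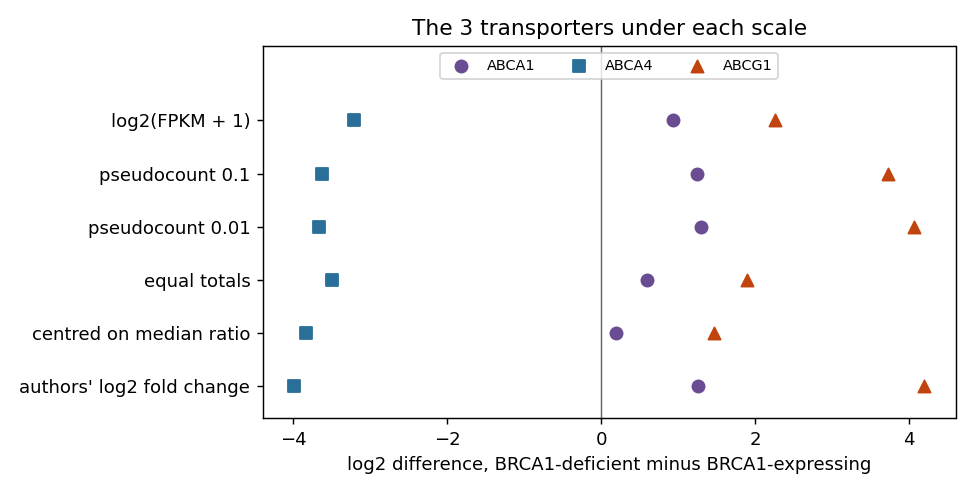
The log2 difference of ABCA1, ABCA4 and ABCG1 (BRCA1-deficient minus BRCA1-expressing) on the scale of FPKM + 1 and under 5 alternatives, 1 row each. ABCG1 spans 1.47 to 4.20, ABCA4 -3.99 to -3.21 and ABCA1 0.19 to 1.30, the last close to 0 when the ratios were centred.

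Of the 3 genes ABCA1 came closest to 0 on any scale. Its log2 difference lay between 0.19 and 1.30 over the main scale and the 5 alternatives, with the lowest value after centring, which subtracts the median log2 ratio of genes with at least 1 FPKM in each line. ABCG1 stayed between 1.47 and 4.20 and ABCA4 between -3.99 and -3.21. Centring and equal totals are computed from genes already called different, so neither shows how the libraries should be scaled.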

How the data were processed

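Total RNA of 2 human cell line samples was sequenced as strand-specific libraries depleted of ribosomal RNA, per the labels' protocols. Per the submitters' processing notes, HISAT2 and StringTie 1.3.3b were used, and mm9, a mouse build, is given. The IDs in the deposited table are human, however, and each of the 1799 found in GENCODE release 29 overlaps its gene there, so its coordinates were read as GRCh38. FPKM values are the authors' mean per line: all 3612, within a tolerance of 0.02 of the last decimal, are means of 3 values, though the labels give 1 sample per line. Per the file headers, the table also gives the authors' log2 fold change (deficient over expressing) with its p-value and adjusted p-value. Which test they ran: not given in the sources used here. Adjusted values follow Benjamini-Hochberg over 38868 features, and the last of the 1806 listed genes is at place 2716, so the table holds part of the features that passed 0.05.

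With means only, no test was run. The difference is log2 of FPKM + 1, deficient minus expressing, with a 2-fold rule for counts. The arithmetic was checked on simulated data without noise, which does not show how the rule performs on these data. The 3 members and the 8 gene lists were chosen with earlier results of these data known. Named genes are the members, BRCA1, every list member with a row, the 3 genes nearest in level to each member and the genes listed within 2 Mb; a few of these are not reported here. Promoter and miRNA sequences are from RefSeq (GRCh38.p14); 1 of the 3 members, ABCA1, matched in the promoter table. Coding transcripts are the longest of the GENCODE basic set. Tried besides were a pseudocount of 0.1 or 0.01, columns scaled to equal totals, centring, the authors' fold, a minimum of 1 FPKM and a 4-fold rule. Python 3.11.15, numpy 2.4.6, pandas 2.3.3 and matplotlib 3.10.9 were used.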

Additional observations from a re-analysis of the deposited data

How the results depend on the processing

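The 3 transporters kept their direction under all 5 alternatives run. A pseudocount cannot change a sign, and the authors' fold was among the values used to choose the set. Equal totals shifted every log2 ratio by -0.43 and centring by -1.01. The log2 FPKM ratios were 1.30 for ABCA1, 4.11 for ABCG1 and -3.68 for ABCA4. Shifts of this size could reverse none of the 3, so the kept direction is no support. The log2 difference of ABCA1 (0.94) was 1.25 with a pseudocount of 0.1, 1.30 with 0.01, 0.60 with equal totals, 0.19 when centred and 1.26 as the authors' fold. That of ABCA4 (-3.21) was -3.62, -3.67, -3.50, -3.84 and -3.99 in the same order, and that of ABCG1 (2.26) was 3.72, 4.06, 1.90, 1.47 and 4.20. ABC transporter genes at least 2-fold higher numbered 2, and 4 with a pseudocount of 0.1, 1 with equal totals, 1 when centred, 1 under a 4-fold rule and 6 by the authors' fold, a comparison added after seeing the data. Those at least 2-fold lower numbered 1, and 2 by the authors' fold. LXR targets at least 2-fold higher numbered 6, and 1 when centred and 1 under the 4-fold rule. Over all listed genes the split of 457 higher and 406 lower became 178 and 520 with equal totals and 63 and 550 when centred. It was 840 and 756 with a pseudocount of 0.1 and 50 and 42 under the 4-fold rule. A pseudocount of 0.1 or 0.01 shrinks low genes less by construction. The cause of the other shifts was not tested. No paired analysis was possible because each line has 1 sample in the labels, and no replicate could be left out. The depth is unknown, so levels near 0, such as 0.303 FPKM of ABCG1 in expressing cells, have no stated floor.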

Other observations

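ABCA4 and ABCA1 share the work of moving phospholipids between membrane leaflets with other enzymes. Of 21 flippases, their subunits and scramblases 6 had a row (28.6%), beside 9.01% of annotated coding genes. Of the 6, 2 were higher and 4 lower in BRCA1-deficient cells by the authors' fold, beside 53.5% and 46.5% of all listed genes. This split over 6 genes is no result on the list. TMEM30A, the subunit that most P4-type flippases need to leave the endoplasmic reticulum, had 19.5 FPKM in deficient cells and 57.3 in expressing cells, with a log2 fold change of -1.57 and an adjusted p of 0.00463 in the authors' deposited table. PLSCR1, a membrane protein also induced by interferon, had 25.5 FPKM in deficient cells and 67.4 in expressing cells, and the flippase ATP8A1 2.15 FPKM in deficient and 5.40 in expressing cells. ATP10A, a flippase of phosphatidylcholine, was higher, at 5.50 FPKM in deficient cells and 1.89 in expressing cells. ATP8B3 (0.455 in deficient cells and 0.0858 in expressing cells) and ATP10B (0.0228 in deficient cells and 0.221 in expressing cells) stayed under 1 FPKM in both. The median difference of the 6 on the log2 scale of FPKM + 1 was -0.64, against 0.20 over all listed genes, and with a pseudocount of 0.1 it was -1.34, against 0.89.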
